A study of Mus musculus with 13 samples.

Results

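The genes described here are 47 genes of S phase and mitosis, followed through F4/80+ cells of the mouse fetal liver at E13.5. They were taken by name, as a fixed list, from 23337 genes in the count tables of the EKLF+/+ and EKLF-/- libraries, from 35498 genes in the EKLF/GFP libraries and from the single-cell matrix, and all 47 were found in each. By role they comprise 10 genes of origin licensing and the replicative helicase, 9 genes of nucleotide supply, the replication fork and chromatin, 8 G1 cyclins and their kinases, 3 kinase inhibitors, and 17 genes of G2 and mitosis. Bulk RNA was sequenced from FACS-sorted F4/80+ cells in 4 groups of 3 libraries each, and a further library held single cells. EKLF (Klf1) is the erythroid Krüppel-like factor, a zinc finger activator of red cell genes. EKLF+/+ cells came from wild type embryos and EKLF-/- cells from embryos null for EKLF. EKLF/GFP+ and EKLF/GFP- cells came from embryos wild type for EKLF that carried pEKLF-GFP, a transgene in which the EKLF promoter drives green fluorescent protein, and were separated by that fluorescence. Every sample is labelled C57BL/6, whereas the methods give 129S4/SvJae as the background of the EKLF-null line. RNA of the EKLF/GFP+ cells was extracted with an Agilent Nanoprep kit and that of the 3 other bulk groups with Trizol, so the kit and the GFP gate cannot be told apart. The methods also give a lower RNA quality score (RIN) for EKLF/GFP+ than for EKLF+/+ and EKLF-/- samples, and state none for EKLF/GFP- samples. Single cells were F4/80+ cells of wild type embryos, pooled from littermates and selected with magnetic beads, which makes them 1 sample.

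A dividing cell copies its genome once per cycle. In G1, Cdc6 and Cdt1 load the Mcm helicase on origins, D-type cyclins with Cdk4 or Cdk6 and then E-type cyclins with Cdk2 release the block on S phase entry, and inhibitors of the Cdkn1 and Cdkn2 families oppose these kinases. In S phase, ribonucleotide reductase and thymidylate synthase make deoxynucleotides, Pcna clamps polymerases to the template, and Slbp supports histone mRNA. In G2, cyclin A and cyclin B with Cdk1 drive entry into mitosis, where Aurora and polo-like kinases and kinetochore proteins segregate the chromosomes and Cdc20 and Ube2c direct cyclin destruction. In the fetal liver, erythroid progenitors divide fast and leave the cycle as they mature, and several macrophage and myeloid populations divide as well.

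Promoters of 4 members are shown because they carry the motifs counted below. Each window holds 250 bases before to 50 after a transcription start in RefSeq (GRCm38.p6), read 5′ to 3′ on the gene's strand. Mcm6, a helicase subunit, lies at chr1:128359656-128359955 on the minus strand. Cdk1, the mitotic kinase, lies at chr10:69352863-69353162 on the minus strand, and Ccnb2, a B-type cyclin, at chr9:70421505-70421804 on the minus strand. In these 3, capitals mark E2F-like, CHR and CCAAT motifs on either strand. Ccne1, cyclin E1, lies at chr7:38107441-38107740 on the minus strand, and there capitals mark the EKLF-type motif.
Mcm6: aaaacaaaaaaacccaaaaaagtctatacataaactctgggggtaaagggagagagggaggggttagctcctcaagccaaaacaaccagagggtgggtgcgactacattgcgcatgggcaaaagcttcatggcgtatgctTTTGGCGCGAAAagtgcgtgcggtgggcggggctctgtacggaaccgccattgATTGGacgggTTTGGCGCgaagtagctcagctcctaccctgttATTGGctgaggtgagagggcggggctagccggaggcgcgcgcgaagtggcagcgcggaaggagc
Cdk1: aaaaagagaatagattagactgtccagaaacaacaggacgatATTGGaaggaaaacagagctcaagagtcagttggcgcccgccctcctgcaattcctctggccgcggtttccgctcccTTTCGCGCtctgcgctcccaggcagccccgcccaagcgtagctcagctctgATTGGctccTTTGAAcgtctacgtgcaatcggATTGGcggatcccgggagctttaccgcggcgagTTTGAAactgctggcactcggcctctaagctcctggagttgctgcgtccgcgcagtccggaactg
Ccnb2: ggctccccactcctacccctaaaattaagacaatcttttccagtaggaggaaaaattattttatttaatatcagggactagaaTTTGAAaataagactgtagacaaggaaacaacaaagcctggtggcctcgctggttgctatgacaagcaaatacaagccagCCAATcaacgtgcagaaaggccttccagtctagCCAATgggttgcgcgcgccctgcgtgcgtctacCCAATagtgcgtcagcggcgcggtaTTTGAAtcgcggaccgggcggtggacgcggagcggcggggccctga
Ccne1: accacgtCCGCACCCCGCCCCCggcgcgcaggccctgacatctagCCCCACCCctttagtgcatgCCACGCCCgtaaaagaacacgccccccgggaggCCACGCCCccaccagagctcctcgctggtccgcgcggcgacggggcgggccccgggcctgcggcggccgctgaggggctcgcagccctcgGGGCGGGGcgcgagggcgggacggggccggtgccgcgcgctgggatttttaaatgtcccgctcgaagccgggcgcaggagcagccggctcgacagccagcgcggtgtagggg

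The table of promoters held 39 of the 47 members. An E2F-like motif (TTTGGCGC, TTTCGCGC, TTTCCCGC or TTTGCCGC on either strand) stood in the promoters of 9 of 39 members (23.1%), against 2.6% of 27025 genes of the table. Of the 9, 6 were among the 8 licensing and helicase genes in the table (75.0%), and the Mcm6 window above holds 3 matches, of which 2 overlap on opposite strands. The CHR motif (TTTGAA or TTTAAA), known from mitotic promoters, was found in 12 of 14 G2 and mitosis genes (85.7%) and in 20 of all 39 members (51.3%), against 30.6% of all genes. A CCAAT box was likewise found in 12 of 14 G2 and mitosis genes (85.7%) and in 41.1% of all genes. The Ccnb2 window holds 3 CCAAT boxes and 2 CHR motifs. The EKLF-type motif CCNCNCCC was present in 28 of 39 members (71.8%) and in 51.9% of all genes, and the Ccne1 window holds 7 matches. Mean GC content was 60.4% in the members' windows and 53.6% in those of all genes, and a GC-rich motif is found more often in GC-rich windows. These matches describe letters in the windows, not binding.

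Counts on genes ranged from 10695514 to 15362161 per EKLF+/+ and EKLF-/- library and from 22723279 to 28736396 per EKLF/GFP library. Klf1 was 5.79-fold lower in EKLF-/- and 2.55-fold higher in EKLF/GFP+ cells, as the labels imply. EKLF-/- replicate 2 stands apart by gene length. Its median log2 deviation from the mean of the 6 libraries was 0.341 in the shortest 25% of genes (up to 2784 bases of merged exons) and -0.361 in the longest 25% (6824 bases or more). The other 5 libraries lay between -0.156 and 0.066 for short genes and between -0.063 and 0.178 for long genes. EKLF/GFP libraries showed deviations of at most 0.057 in size. Values of the called members without EKLF-/- replicate 2 are therefore given beside the comparison. Marker genes of other cell types also moved with the groups. The summed level of 10 erythroid markers was 15083 to 19554 CPM (counts scaled to the library's size) in EKLF+/+ and 4147 to 5976 CPM in EKLF-/-, and that of 10 neutrophil markers was 5734 to 7404 CPM and 7914 to 15576 CPM, the highest in EKLF-/- replicate 2. Of these, 6 of 9 erythroid markers tested were called lower (Hba-a1 is listed at 0 in all 6 libraries) and 7 of 10 neutrophil markers higher. In EKLF/GFP+ cells the 11 erythroid markers were all called higher, with sums of 12209 to 15684 CPM against 6036 to 8042 CPM in EKLF/GFP- cells. All 10 neutrophil markers were called lower, with sums of 478 to 763 CPM against 4272 to 4934 CPM. The 12 macrophage markers summed to 358 to 426 CPM in EKLF+/+, 363 to 569 CPM in EKLF-/-, 396 to 580.1 CPM in EKLF/GFP- and 277 to 688 CPM in EKLF/GFP+. Of them, 3 were called lower in EKLF-/-, and 2 lower and 1 higher in EKLF/GFP+. In EKLF/GFP+ cells, markers of several other cell types were lower as well. All 6 monocyte markers were called lower, with sums of 881 to 999 CPM in EKLF/GFP- and 110.6 to 144 CPM in EKLF/GFP+ cells (7.504-fold). All 6 dendritic markers (11.2-fold) and the 5 lymphoid markers tested (8.59-fold; Cd3e is listed at 0) were also called lower, as were 4 of 6 endothelial (2.25-fold), 2 of 6 mesenchymal (1.98-fold) and 2 of 6 mast cell or basophil markers (1.38-fold). Of 6 megakaryocyte markers, 5 were called higher and 1 lower (1.81-fold higher in sum). In EKLF-/-, 4 of 6 endothelial markers (1.48-fold lower in sum) and 3 of 6 mesenchymal markers (2.87-fold) were called lower, 1 mast cell or basophil marker was lower and 1 higher (1.42-fold lower), and 1 of 6 monocyte markers was higher (1.38-fold higher in sum). Of 5 dendritic markers tested, 2 were lower and 1 higher (1.36-fold lower in sum), 1 of 6 megakaryocyte markers was lower although their sum was 1.21-fold higher, and 1 of 4 lymphoid markers tested was lower (1.095-fold higher in sum). The part of these shifts, and of the sequencer, which is not given per library, in the results below was not tested. In bulk samples, fewer cells of a type and less RNA per cell cannot be told apart.

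**Figure D1:**
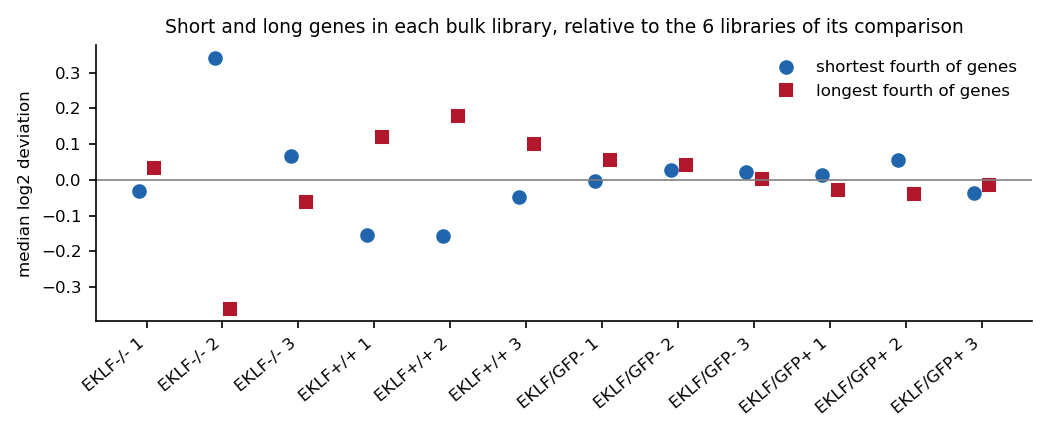
Median log2 deviation of short genes (circles) and long genes (squares) in each of the 12 bulk libraries, from the mean of the 6 libraries of its comparison. EKLF-/- replicate 2 lies at 0.341 for short and -0.361 for long genes, farther from 0 than any other library.

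The EKLF+/+ and EKLF-/- libraries were compared to ask how the cell cycle program of F4/80+ cells changes without EKLF. Of the 47 members, 7 were lower and 5 higher in EKLF-/- at an edgeR quasi-likelihood p, adjusted by Benjamini and Hochberg's method, under 0.05. Among the 12753 genes tested, 10.6% were lower, 9.72% higher and 20.3% either, so the members' counts are near the background. The median log2 fold change of the members was -0.08, beside 0.02 over all genes. The lower ones were 4 genes of nucleotide supply, fork and chromatin (Rrm1, Rrm2, Slbp and Uhrf1) and 3 G1 genes (Ccnd2, Ccne2 and Cdk6), and the higher ones were Ung and Fen1, the inhibitor gene Cdkn1b, and the mitotic genes Ccnb2 and Plk1. Values of the 3 libraries of each group did not overlap for 27 members, and for 46.3% of all genes.

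No gene of origin licensing and the helicase passed the test. The 6 Mcm subunits, which form the ring that unwinds DNA, differed by -0.24 (Mcm4) to 0.12 (Mcm5) on the log2 scale. The loader gene Cdc6 had normalised counts of 2791, 2403 and 2869 in EKLF+/+ and 2360, 1690 and 2148 in EKLF-/-. Its groups did not overlap, with a log2 fold change of -0.38 ± 0.14 (SE) and an adjusted p of 0.088 by edgeR. Cdc45, a helicase cofactor, differed by 0.24, and Cdt1 by -0.12.

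Among genes of nucleotide supply, Rrm2, the regulated subunit of ribonucleotide reductase, fell furthest. Its normalised counts were 8510, 8041 and 8956 in EKLF+/+ and 6141, 4421 and 5193 in EKLF-/-, and every EKLF-/- library lay below every EKLF+/+ library. It was 1.62-fold lower (log2 fold change -0.69 ± 0.14 SE, edgeR adjusted p = 0.013). The large subunit gene Rrm1 was 1.38-fold lower, with 9624, 9954 and 12426 normalised counts in EKLF+/+ and 8489, 7449 and 7263 in EKLF-/- (edgeR adjusted p = 0.045). Uhrf1, which reads hemimethylated DNA behind the fork, was 1.47-fold lower, at 7904, 7277 and 8001 against 5803, 4587 and 5400 normalised counts (edgeR adjusted p = 0.018). Slbp, the histone mRNA stem-loop binding protein, was 1.33-fold lower, from 2935 to 3713 down to 2386 to 2702 normalised counts. Ung and Fen1 went the other way. Ung, the uracil glycosylase that removes uracil from DNA, was 1.46-fold higher, with 725, 691 and 645 normalised counts in EKLF+/+ and 1074, 987 and 945 in EKLF-/- (edgeR adjusted p = 0.010). The flap endonuclease gene Fen1 was 1.34-fold higher, with 3155 to 3633 against 4352 to 4896 normalised counts. Pcna, Tyms and Chaf1b were not called, at log2 fold changes of -0.24, -0.07 and -0.28.

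The G1 genes held the largest falls. Ccnd2, cyclin D2, had 1664, 1936 and 1596 normalised counts in EKLF+/+ and 1049, 809 and 776 in EKLF-/-, so the highest EKLF-/- library lay well below the lowest EKLF+/+ library. It was 1.97-fold lower (log2 fold change -0.98 ± 0.14 SE, edgeR adjusted p = 0.0030). Cdk6, a partner kinase of the D-type cyclins, had 636, 721 and 569 normalised counts against 336, 151 and 291, a 2.48-fold difference (log2 fold change -1.31 ± 0.26 SE, edgeR adjusted p = 0.013). The lowest Cdk6 value was that of EKLF-/- replicate 2. Ccne2, cyclin E2, was 1.58-fold lower, with 1143, 926 and 1446 against 771, 720 and 729.6 normalised counts (edgeR adjusted p = 0.023). The related genes Ccnd1, Ccnd3 and Cdk4 had log2 fold changes of 0.05, -0.05 and 0.00 and overlapping groups. Per kilobase of merged exons, cyclin D2 made up 13.3 to 16.7% of the 3 D-type cyclins in EKLF+/+ and 7.61 to 9.52% in EKLF-/-. Cyclin D3 was the largest share in both groups, at 70.2 to 73.6% and 75.0 to 79.6%. Ccne1 was at -0.22 and Cdk2 at -0.13, and neither was called.

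Of the inhibitor genes, Cdkn1b (p27) was 1.30-fold higher in EKLF-/-, with 481, 553 and 527 normalised counts against 625, 723 and 690.4 (edgeR adjusted p = 0.046). Cdkn1a (p21) had 397 to 456 normalised counts in EKLF+/+ and 155, 389 and 247 in EKLF-/- (log2 fold change -0.72, edgeR adjusted p = 0.0999). Cdkn2c (p18) was at -0.35 and was not called.

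The 17 genes of G2 and mitosis had a median log2 fold change of 0.06. Ccnb2 was 1.47-fold higher, with 2273, 2305 and 2477 normalised counts in EKLF+/+ and 3281, 3608 and 3475 in EKLF-/- (log2 fold change 0.55 ± 0.10 SE, edgeR adjusted p = 0.0078). Plk1, polo-like kinase 1, was 1.30-fold higher, with 2669 to 3045 against 3549 to 3806 normalised counts. Aurka and Aurkb, the Aurora kinase genes, had non-overlapping groups at 0.27 and 0.28, with edgeR adjusted p of 0.078 and 0.062. Mki67, which encodes the proliferation marker Ki-67, had 30504, 31396 and 34257 normalised counts in EKLF+/+ and 26669, 11887 and 19784 in EKLF-/-. Its groups did not overlap, but the spread of the EKLF-/- libraries was wide (log2 fold change -0.72 ± 0.25 SE, edgeR adjusted p = 0.075). Cenpf, a kinetochore protein gene, showed the same shape at -0.61, with 2777, 1369 and 2232 normalised counts in EKLF-/-. Both have their lowest value in EKLF-/- replicate 2. Top2a, Cdk1, Ccna2, Ccnb1, Birc5, Bub1, Cdc20, Cenpe, Tpx2, Nusap1 and Ube2c lay between -0.32 and 0.22 and were not called.

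**Figure D2:**
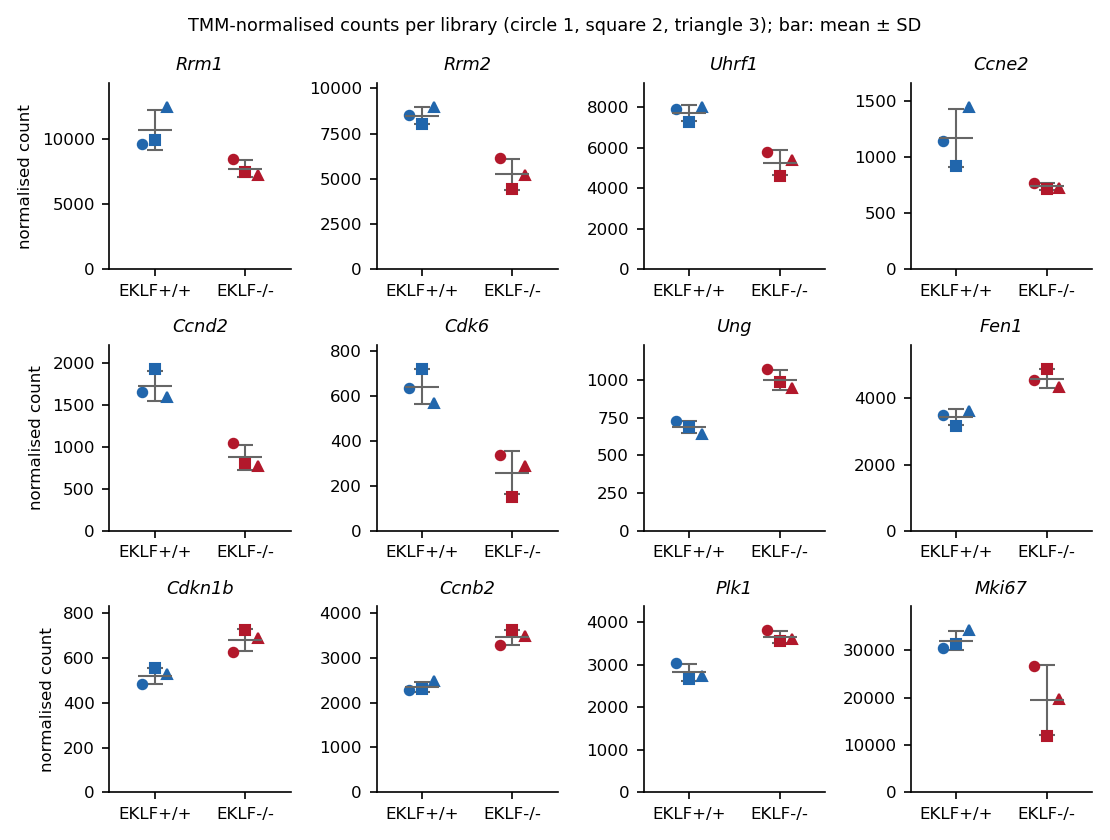
TMM-normalised counts of 12 members in the EKLF+/+ and EKLF-/- libraries, with symbols for replicates 1, 2 and 3 and bars for the mean ± SD (n = 3). Ccnd2 lies at 1596 to 1936 in EKLF+/+ and 776 to 1049 in EKLF-/-, while the EKLF-/- values of Mki67 spread from 11887 to 26669.

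The calls differed in how far they depended on the libraries and the scaling. After each library's trend with gene length was removed, an alternative chosen after seeing the data, 9 members were lower and 2 higher, beside 1401 and 1237 of the 11557 genes with a length. Rrm2 (-0.84), Uhrf1 (-0.59), Ccnd2 (-0.74), Cdk6 (-0.95), Ccne2 (-0.75), Ung (0.59) and Cdkn1b (0.37) were still called. Rrm1 (-0.15), Slbp (-0.34), Fen1 (0.23), Ccnb2 (0.27) and Plk1 (0.17) were not, with adjusted p of 0.45, 0.054, 0.091, 0.076 and 0.32 by edgeR. Ccne1 (-0.38), Cdkn1a (-0.82), Cdkn2c (-0.51) and Ube2c (-0.29) were then called lower. Without EKLF-/- replicate 2, 11 members were lower and 5 higher, beside 13.7% and 10.2% of all genes, and without EKLF-/- replicate 1 there were 10 and 4, beside 15.0% and 13.7%. Without EKLF+/+ replicate 1 there were 2 lower and 1 higher (4.57% and 2.75% of all genes), without EKLF+/+ replicate 3 also 2 and 1 (5.02% and 2.94%), without EKLF-/- replicate 3 there were 2 and 2 (4.55% and 3.37%), and without EKLF+/+ replicate 2 there were 5 and 1 (4.86% and 3.33%). Of the 12 called members, Ccnd2 alone was called in every one of the 14 alternatives. Ccnd2, Ccne2, Cdk6, Rrm2, Uhrf1 and Ung were called in every alternative that kept all libraries. Without EKLF-/- replicate 2, the log2 fold changes were -1.05 for Cdk6, -0.94 for Ccnd2, -0.66 for Ccne2, -0.60 for Rrm2, -0.48 for Uhrf1, -0.45 for Rrm1 and -0.41 for Slbp. Of the members higher in EKLF-/-, Ung was then at 0.54, Ccnb2 at 0.51, Plk1 at 0.38, Fen1 at 0.36 and Cdkn1b at 0.32, and of all 12 Cdkn1b was no longer called (edgeR adjusted p = 0.052). Mki67 and Cenpf without EKLF-/- replicate 2 were called lower, at smaller log2 fold changes of -0.48 and -0.39 (edgeR adjusted p of 0.03 and 0.025). With the length trend removed and all libraries kept, neither was called, at -0.49 and -0.22 (edgeR adjusted p of 0.067 and 0.18).

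A further 123 cell cycle genes outside the set were tested, of which 16 were lower and 8 higher, with a median of -0.09. Over all genes 10.6% were lower and 9.72% higher. Of 50 other S phase genes, 10 were lower and 1 higher, and of 55 other G2 and mitosis genes, 3 were lower and 6 higher. The largest falls were in Mycn, a Myc family factor (-0.92), Mybl2, the B-Myb factor (-0.85), and Orc1, an origin recognition subunit (-0.79). The largest rises were in Ccng2, cyclin G2 (0.73), Hjurp, a centromere histone chaperone (0.62), and Spc24, a kinetochore subunit (0.49). Their edgeR adjusted p lay between 0.0015 and 0.028.

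EKLF/GFP+ and EKLF/GFP- cells were compared to ask how F4/80+ cells differ between the sides of the GFP gate. Klf1 RNA was found on both sides, with 903, 1194 and 747 normalised counts in EKLF/GFP- and 2626, 2356 and 2278 in EKLF/GFP+ cells. The comparison is therefore of lower against higher Klf1 RNA, not of absent against present. Here 30 of the 47 members were higher in EKLF/GFP+ cells and 4 were lower by the same edgeR test. Among the 14259 genes tested, 18.9% were higher, 25.8% lower and 44.7% either. The median log2 fold change of the members was 0.34, beside -0.01 over all genes. The groups did not overlap for 37 members, and for 55.7% of all genes. Among the licensing genes 6 of 10 were higher, among the nucleotide, fork and chromatin genes 8 of 9, and among the G2 and mitosis genes 12 of 17, with none lower. The G1 genes split, with 3 higher and 3 lower of 8. The EKLF-/- and EKLF/GFP comparisons share no samples. Of the 7 members lower in EKLF-/-, Rrm1, Rrm2, Slbp, Uhrf1 and Ccne2 were higher in EKLF/GFP+ cells, Cdk6 was lower and Ccnd2 was not called. Of the 5 members higher in EKLF-/-, Fen1 (1.34-fold) and Ccnb2 (1.35-fold) were higher in EKLF/GFP+ cells too, and Ung, Cdkn1b and Plk1 were not called. These counts stand beside the 30 of 47 members that were higher in EKLF/GFP+ cells.

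**Figure D3:**
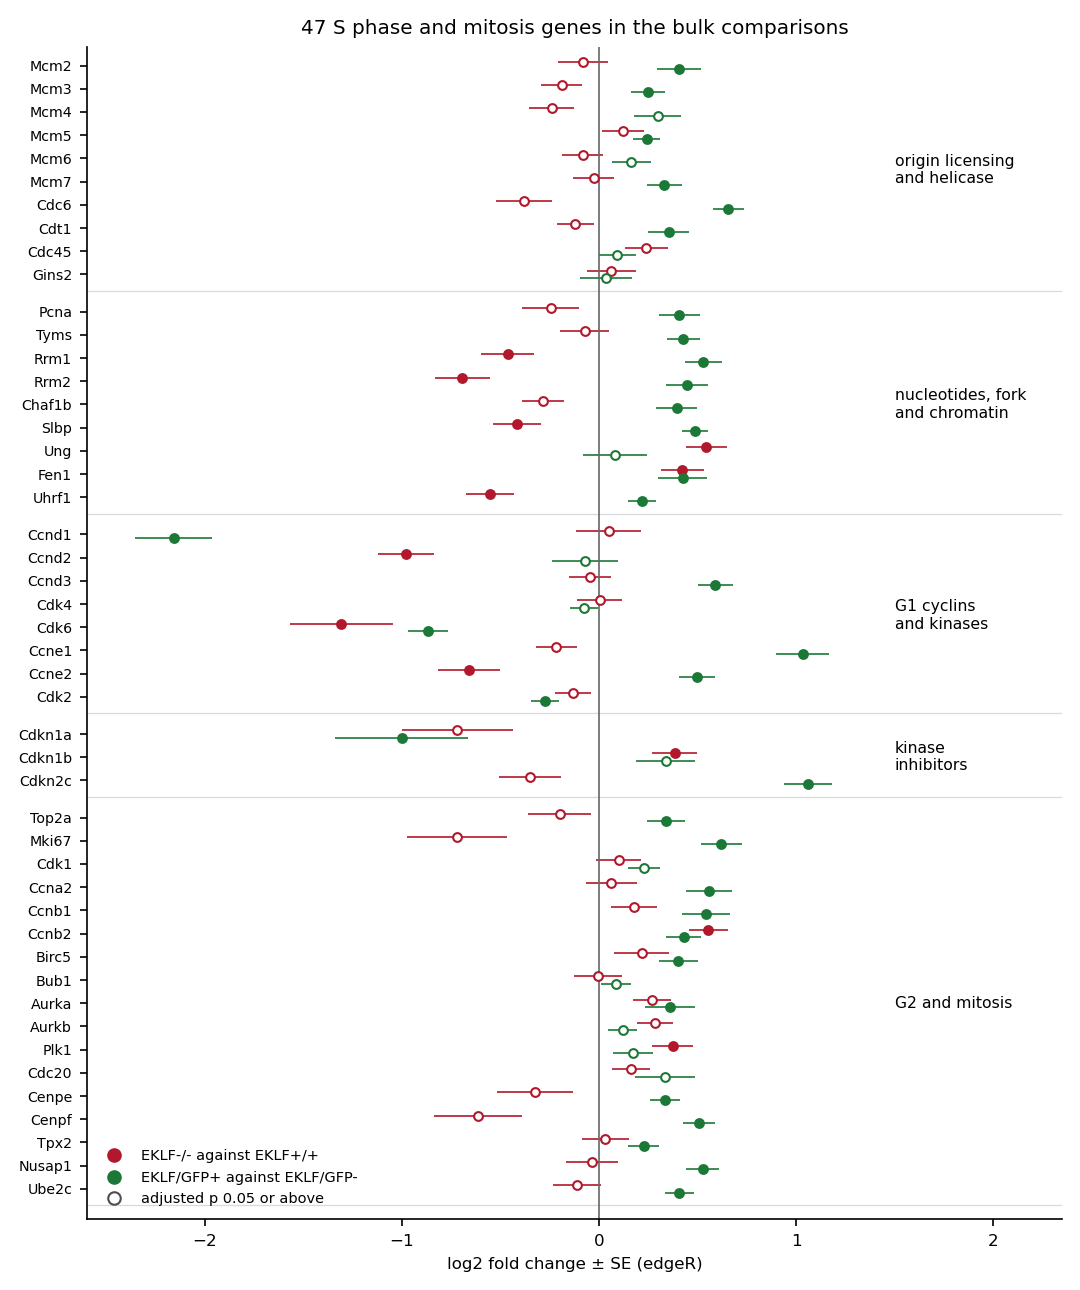
Log2 fold change ± SE of each of the 47 members in EKLF-/- against EKLF+/+ cells (red) and in EKLF/GFP+ against EKLF/GFP- cells (green), grouped by role, with open circles where the adjusted p was 0.05 or above. Green points lie mostly right of 0, with 30 called higher and 4 lower, and red points lie on both sides, with 5 called higher and 7 lower.

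Most of the increases were moderate. Among licensing genes, Cdc6 rose the most, from 3295, 3758 and 3242 normalised counts in EKLF/GFP- to 5232, 5540 and 5460 in EKLF/GFP+ cells, a 1.58-fold difference (edgeR adjusted p = 0.00030). Mcm2, Mcm3, Mcm5, Mcm7 and Cdt1 were also higher, by 0.24 to 0.41 on the log2 scale, and Mcm4, Mcm6, Cdc45 and Gins2 were not called. Rrm1 went from 15430, 16947 and 13767 to 21648, 22526 and 22419 normalised counts, 1.44-fold higher (edgeR adjusted p = 0.0023). Slbp was 1.40-fold higher, Tyms, which makes thymidylate, 1.35-fold and Pcna 1.33-fold. Among genes of G2 and mitosis, Mki67 was 1.54-fold higher, with 117140, 127940 and 103300 against 167160, 189280 and 179120 normalised counts (edgeR adjusted p = 0.0017). Ccna2 and Ccnb1, the cyclin A2 and cyclin B1 genes, were 1.47-fold and 1.46-fold higher, and Nusap1, a spindle protein gene, 1.44-fold. Cdk1 (0.23), Bub1, Aurkb, Plk1 and Cdc20 were not called.

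The G1 cyclins, their kinases and the inhibitors changed in both directions. Ccne1 rose from 2081, 2587 and 1782 normalised counts in EKLF/GFP- to 4699, 4088 and 4422 in EKLF/GFP+ cells (2.05-fold, log2 fold change 1.03 ± 0.13 SE, edgeR adjusted p = 0.00048). Ccnd1 fell from 284, 214 and 275 to 48.3, 55.2 and 69.6 normalised counts, a 4.46-fold difference (log2 fold change -2.16 ± 0.20 SE, edgeR adjusted p = 8.1e-05). In single cells, 2889 of 5733 Ccnd1 UMIs were in macrophage-like, 766 in monocyte-like, 539 in hepatoblast-like and 445 in endothelial-like cells, with 463, 196 and 159 in the unnamed clusters led by Gm11518, Hmga2 and Tmcc2. In EKLF/GFP+ cells the summed markers of macrophages and of hepatoblasts were 1.02-fold and 1.01-fold those of EKLF/GFP- cells, while the monocyte and endothelial sums were lower. The part of any of these cells in the fall of Ccnd1 was not tested. Ccnd3 rose from 1835, 2105 and 1716 to 2859.8, 2838 and 2812 normalised counts, 1.504-fold (edgeR adjusted p = 0.00099). Ccnd2 did not pass the test, with 752 to 993 and 667 to 1009 normalised counts. Per kilobase of merged exons, cyclin D1 made up 11.6 to 17.5% of the D-type cyclins in EKLF/GFP- and 2.31 to 3.54% in EKLF/GFP+ cells, and cyclin D3 58.5 to 61.4% and 73.5 to 79.7%. Cdk6 fell 1.83-fold, from 2556, 2529 and 2230 to 1508, 1267 and 1232 normalised counts (edgeR adjusted p = 0.00030), while Cdk4 was at -0.08 and not called. Cdk2 was 1.21-fold lower. Cdkn2c, an inhibitor of Cdk4 and Cdk6, was 2.08-fold higher, with 129.5, 133 and 131 against 274, 254 and 292 normalised counts (edgeR adjusted p = 0.00026). Cdkn1a was 2.00-fold lower at low counts (64.8, 37.7 and 49.8 against 18.0, 21.7 and 36.3), and Cdkn1b was not called.

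Without EKLF/GFP- replicate 1, 17 members were higher and 2 lower, beside 13.9% and 20.5% of all genes. Without EKLF/GFP- replicate 3 there were 20 higher, beside 16.7% of all genes. Of the 34 members called, 17 were called under every alternative, namely Ccna2, Ccnb1, Ccnb2, Ccnd1, Ccnd3, Ccne1, Ccne2, Cdc6, Cdk6, Cdkn2c, Cenpe, Cenpf, Mki67, Nusap1, Rrm1, Slbp and Ube2c. Among the 123 other cell cycle genes, 71 were higher and 7 lower, with a median of 0.31, beside 18.9% and 25.8% of all genes. The largest rises were in Cdc25b, a phosphatase that activates Cdk1 (1.40), Btg2, an antiproliferative gene (1.06), and Rb1, the retinoblastoma gene (0.98). The largest falls were in Mycn (-2.12), Pimreg, a mitotic regulator (-1.86), and Btg1, a relative of Btg2 (-0.78).

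Single cells were used to ask which cells of the F4/80+ fraction carry these transcripts. Of 3096 barcodes, all distinct, 3093 had at least 200 detected genes, with a median of 18565 UMIs, each UMI standing for 1 captured RNA molecule. The 47 members and the other cell cycle genes were kept out of the genes used for clustering. By markers, 1116 cells were macrophage-like, 616 erythroid-like, 281 monocyte-like, 254 neutrophil-like, 90 megakaryocyte-like, 83 endothelial-like and 63 hepatoblast-like. The neutrophil-like cluster led by Ctsg, with 143 cells, also held 5 markers of mast cells or basophils. A set of 4 clusters stayed unnamed and is called by its leading genes. With 1 sample there is no test, and intervals cover counting error only. The 47 members together made up 61.6 UMIs per 10000 in erythroid-like cells (exact Poisson 95% interval 61.2 to 61.9), 55.2 in monocyte-like, 53.2 in megakaryocyte-like, 51.7 in neutrophil-like, 43.9 in endothelial-like, 40.4 in macrophage-like (40.2 to 40.7) and 33.3 in hepatoblast-like cells. Hemoglobin RNA takes up much of the erythroid-like total, and without it the erythroid-like value was 81.1 and the macrophage-like value 40.7. With every cell weighted alike, thinned to 5000 UMIs, the values were 54.3 in erythroid-like, 53.7 in megakaryocyte-like and 37.7 in macrophage-like cells.

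UMI counts here were read from the 3′ end and were not divided by length. Ube2c, the ubiquitin-conjugating enzyme of mitotic exit, was the highest member in macrophage-like (3.545 UMIs per 10000), monocyte-like (5.18), neutrophil-like (4.625) and megakaryocyte-like cells (3.799). In erythroid-like cells Mki67 was highest (5.324) and in endothelial-like and hepatoblast-like cells Ccnd1 (3.399 and 2.72). The lowest member was Ccne2 in macrophage-like (0.1068) and Cdkn1a in erythroid-like cells (0.05762). In the other 5 named classes it was Cdkn2c, between 0.005046 in hepatoblast-like and 0.1332 in monocyte-like cells. Rrm2 was 2.26 UMIs per 10000 in erythroid-like and 0.659 in macrophage-like cells. Of the E-type cyclin UMIs, Ccne1 made up 80.6% in erythroid-like (79.0 to 82.0%, exact binomial 95% interval), 61.9% in macrophage-like (57.9 to 65.7%) and 43.2% in neutrophil-like cells (36.2 to 50.4%). The erythroid-like share was not uniform, with 85.1% in the cluster led by Mns1 and 79.45% in that led by Cd24a, but 47.3% (38.95 to 55.7%) in the cluster led by Hbb-bs, below the macrophage-like share.

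Within erythroid-like cells the members ranged by cluster. Since hemoglobin RNA takes a different part of each cluster's total, levels are also given per 10000 UMIs other than hemoglobin, an alternative chosen after seeing the data. In the cluster led by Cd24a (180 cells) S phase members summed to 38.9 and G2 and mitosis members to 37.8 UMIs per 10000, and without hemoglobin to 44.7 and 43.5. The cluster led by Mns1 (150 cells), which holds 3 of 11 erythroid markers and little hemoglobin RNA, had 28.8 and 25.8, and 29.1 for S phase members without hemoglobin. The hemoglobin-rich cluster led by Hbb-bs (202 cells) had 9.54 and 28.6 of all UMIs but 29.9 and 89.8 without hemoglobin. Its place among the clusters changed with the total. The highest G2 and mitosis level was that of the Cd24a cluster with hemoglobin counted and that of the Hbb-bs cluster without it, while the highest S phase level was that of the Cd24a cluster either way. Mki67 was 7.37 UMIs per 10000 in the Hbb-bs and 7.55 in the Cd24a cluster, and 23.1 and 8.68 without hemoglobin. Rrm2 was 1.58 and 3.66, and 4.96 and 4.21 without hemoglobin, so its order turned. The cluster led by Hba-x, an embryonic globin gene (84 cells), had 2.62 and 4.05 of all UMIs and 10.96 and 16.95 without hemoglobin. Without hemoglobin, hepatoblast-like cells, at 11.8 and 13.8, had a lower G2 and mitosis level than the Hba-x cluster and an S phase level whose interval overlapped with it (11.3 to 12.3 against 9.87 to 12.1). No cluster was free of these transcripts. Among myeloid clusters, monocyte-like cells had 18.8 and 29.35 without hemoglobin, the Ctsg cluster 19.4 and 25.2, and the neutrophil-like cluster led by Ngp (111 cells) 13.56 and 31.6. The 3 macrophage-like clusters lay close together, with 15.3 to 16.9 and 18.8 to 20.7.

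**Figure D4:**
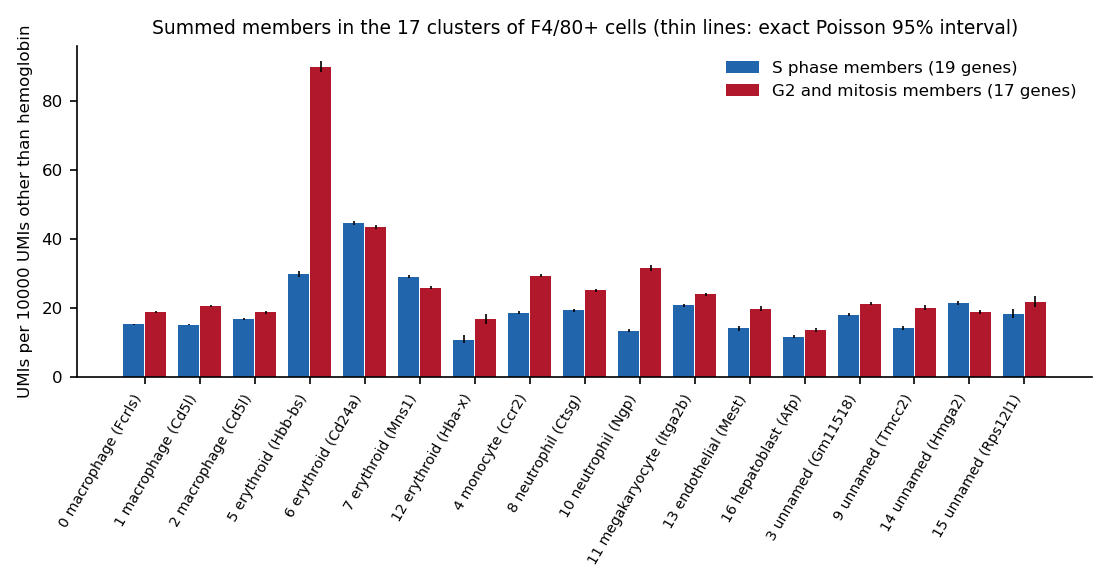
UMIs of the 19 S phase members (blue) and the 17 G2 and mitosis members (red) per 10000 UMIs other than hemoglobin, in 17 clusters of single cells labelled by class and leading gene, with exact Poisson 95% intervals. The Hbb-bs-led erythroid-like cluster is at 29.9 and 89.8, the Cd24a-led cluster at 44.7 and 43.5, and the Hba-x-led cluster at 10.96 and 16.95.

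To compare shares of cells, each cell was thinned to 5000 UMIs, hemoglobin included, and 56 shallower cells were left out, 27 of them in the unnamed cluster led by Rps12l1. At least 3 UMIs of G2 and mitosis members were found in 72.4% of macrophage-like cells (exact binomial 95% interval 69.7 to 75.0%, 805 of 1112 cells, median depth 17500.5 UMIs), or 93.5% before thinning. The share was 83.6% of erythroid-like cells (80.4 to 86.4%, 514 of 615 cells, median depth 27300.5 UMIs), or 95.3% before thinning. It was 82.7% in monocyte-like, 84.4% in neutrophil-like, 90.9% in megakaryocyte-like, 72.0% in endothelial-like and 71.2% in hepatoblast-like cells. Among macrophage-like clusters it was 63.5% (Fcrls, 58.45 to 68.3%), and 77.8% (73.3 to 81.9%) and 76.4% in those led by Cd5l. Among erythroid-like clusters it was 99.4% (Cd24a), 100% (Mns1), 80.6% (Hbb-bs) and 27.4% (Hba-x). The Hba-x share (18.2 to 38.2%) was 67.9% before thinning, at a median depth of 16991.5 UMIs. For S phase members the order of macrophage-like and erythroid-like cells was the other way. At least 3 UMIs of them were found in 85.8% of macrophage-like (83.6 to 87.8%) and 69.6% of erythroid-like cells (65.8 to 73.2%). Among erythroid-like clusters the S phase share was 100% (Cd24a and Mns1), 42.8% (Hbb-bs) and 14.3% (Hba-x). Thinning to equal totals leaves fewer UMIs other than hemoglobin in red cells. In an alternative chosen after seeing the data, each cell was thinned to 2000 UMIs other than hemoglobin, and 32 cells were left out, 24 of them in the Hba-x cluster. The share with at least 3 UMIs of G2 and mitosis members was then 45.5% of macrophage-like (42.6 to 48.5%, 508 of 1116 cells) and 85.7% of erythroid-like cells (82.6 to 88.4%, 503 of 587 cells). It was 96.1% in the Cd24a, 78.0% in the Mns1, 92.4% in the Hbb-bs and 51.7% in the Hba-x cluster (38.4 to 64.8%, 31 of 60 cells). The lowest share of any cluster was then 37.7%, in the macrophage-like cluster led by Fcrls. No class without these transcripts was at hand to give a background from free RNA. These shares count cells with transcripts and are not counts of dividing cells.

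The classes also differed in which D-type cyclin gene they expressed. Of all D-type cyclin UMIs, Ccnd1 made up 64.5% in macrophage-like (63.1 to 65.9%, exact binomial 95% interval), 61.5% in endothelial-like and 74.3% in hepatoblast-like cells. It made up 3.35% in erythroid-like (2.83 to 3.93%), 4.46% in neutrophil-like and 3.87% in megakaryocyte-like cells. Among erythroid-like clusters it was 1.67 to 4.52%, except in the Hba-x cluster, where it was 40.4% of only 47 UMIs (26.4 to 55.7%). Ccnd3 made up 83.1% in erythroid-like and 80.0% in neutrophil-like cells, and 25.2% in macrophage-like cells. Clusters within these classes differed, with Ccnd3 at 94.25% in the Hbb-bs, 93.7% in the Cd24a, 58.2% in the Mns1 and 57.45% in the Hba-x cluster, and at 71.1% in the Ctsg and 95.5% in the Ngp cluster. In the Mns1 cluster Ccnd2 made up 37.5%. Monocyte-like cells lay between, with 31.0% Ccnd1 and 49.7% Ccnd3. Ccnd2 was highest in megakaryocyte-like cells (43.7%) and in the unnamed cluster led by Hmga2 (49.4%). Cdk6 made up 53.1% of the Cdk4 and Cdk6 UMIs in neutrophil-like and 44.0% in megakaryocyte-like cells, but 18.3% in macrophage-like, 20.1% in erythroid-like (8.16 to 25.2% by cluster) and 6.38% in endothelial-like cells. Within erythroid-like cells Cdk6 was 1.16 UMIs per 10000 in the Mns1 cluster and 0.0312 in the Hbb-bs cluster, and 1.175 and 0.0979 without hemoglobin. Ccne1 was 1.135 UMIs per 10000 in erythroid-like and 0.173 in macrophage-like cells, but within erythroid-like cells 1.505 in the Mns1, 1.55 in the Cd24a, 0.166 in the Hbb-bs and 0.0564 in the Hba-x cluster. These Ccne1 levels count hemoglobin RNA in the total and are not given without it. It takes up most of the total in the Hbb-bs and Hba-x clusters, so their Ccne1 levels cannot be ranked against the macrophage-like level. Cdkn1a was 0.381 in macrophage-like and 0.0576 in erythroid-like cells. Cdkn1b was 1.35 UMIs per 10000 in the unnamed cluster led by Tmcc2, against 0.247 in macrophage-like cells. That cluster (121 cells) held 8 macrophage markers together with red cell genes.

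**Figure D5:**
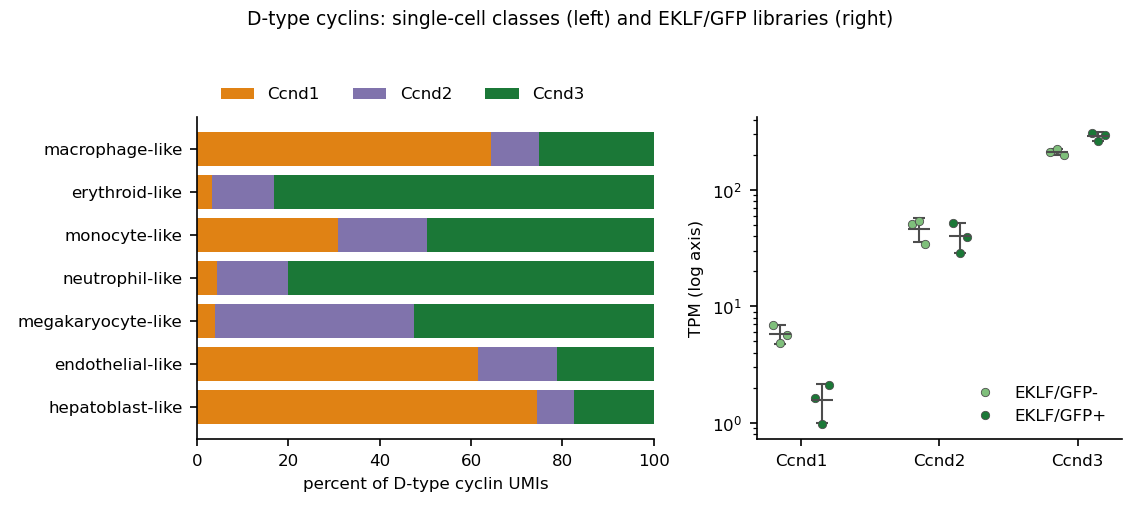
Left, share of Ccnd1, Ccnd2 and Ccnd3 in the D-type cyclin UMIs of each single-cell class, and right, their TPM (transcript level scaled for length and depth, log axis) in the EKLF/GFP libraries, with points for libraries and bars for the mean ± SD (n = 3). Ccnd1 is 64.5% in macrophage-like and 3.35% in erythroid-like cells.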

How the data were processed

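RNA was measured in 12 bulk libraries and 1 single-cell library of F4/80+ fetal liver cells. The EKLF+/+ and EKLF-/- files hold raw counts per gene, deposited by the authors from STAR alignments to mm10 and htseq-count. Of the reads in these files, 27.3 to 32.8% fell on genes, and the rest was left out of library sizes. The file of EKLF+/+ replicate 1 repeats 5 columns of the other libraries, which were not used, and a deposited table of log2 counts with the authors' own fold changes was not used either. The EKLF/GFP files hold estimated counts per transcript and TPM, made by the authors with Salmon (GRCm38). Estimated counts were added up over each gene's transcripts and rounded, and TPM is only plotted. The authors' normalised counts (a signal, from tximport and DESeq2) entered 1 alternative, with a pseudocount of 1. Single-cell values are expected counts deposited by the authors from Alevin, of which 95.81% were whole within 0.001.

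Genes needed 10 or more counts in 3 or more of the 6 libraries of a comparison. They were normalised by TMM and tested with edgeR 4.0.16 (two-sided quasi-likelihood test, Benjamini-Hochberg adjustment across the genes tested, threshold 0.05), each comparison alone. Normalised counts are counts divided by relative library size. Replicate libraries differed beyond sampling noise (chi-square per degree of freedom 8.05 to 60.2). The fits were tested on simulated data. Single cells were clustered with Seurat 5.3.0 (4000 variable genes, 30 components, resolution 0.8) and named from marker lists. A doublet caller marked no cell and no cell was removed for it. Alternatives were DESeq2 1.42.0, other normalisations and filters, a replicate block, limma 3.58.1, leaving out libraries, other clusterings and filters on cells, and totals without hemoglobin. Every member could be named. Of other cycle genes, the 3 largest rises and falls among those called without overlap were named. Members, lists and tests were chosen with earlier results of these data known. The methods call the libraries biological triplicates, but the labels do not tie them to embryos or litters, so p-values measure the spread between these libraries. Exact intervals cover counting error only. Promoters came from a RefSeq table and lengths from GENCODE exons of GRCm38.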

Additional observations from a re-analysis of the deposited data

How the results depend on the processing

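None of the called members changed direction under any alternative run. Of the values of members in EKLF-/-, 570 kept direction and side of the threshold, 45 lost the call, 16 gained one and 27 changed sign, and in EKLF/GFP+ these were 660, 67, 16 and 9. With the length trend removed, chosen after seeing the data, uncalled members changed sign in EKLF-/- to 0.044 (Mcm2), 0.013 (Tyms), 0.18 (Ccnd3), -0.11 (Cdk4), 0.011 (Top2a) and -0.085 (Cdc20), 2 members were higher (1237 of 11557 genes), and Ccnd2 was 0.020 in EKLF/GFP+. Cdk4 in EKLF-/- was -0.0082 by DESeq2, -0.0083 with its size factors in edgeR, -0.0012 with no filter and -0.0089 with 10 counts in every library, and Bub1 was 0.017 by upper-quartile scaling. With limma, Ccnd2 was 0.16 and Cdk4 0.0031 in EKLF/GFP+, and 2 members were lower (20.1% of all genes). By DESeq2, 25 other cycle genes were lower in EKLF-/-, beside 13.6% of all genes.

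The labels do not say whether same-numbered libraries were paired. Correlations of same-numbered libraries lay between -0.0054 and 0.056 in the EKLF-/- comparison and between -0.090 and 0.032 in the EKLF/GFP comparison. With 3 libraries per group, these values cannot show whether samples were paired. With a replicate block, 5 members were lower and 2 higher in EKLF-/-, with 2 other cycle genes higher, beside 8.13% and 6.77% of all genes, and 2 members were lower and 26 higher in EKLF/GFP+, beside 3425 and 2360 of 14259 genes. In the EKLF/GFP comparison no library correlated best with its own number. The highest values there were 0.166 (EKLF/GFP- 2 with EKLF/GFP+ 1), 0.162 (EKLF/GFP- 3 with EKLF/GFP+ 2) and 0.078 (EKLF/GFP- 1 with EKLF/GFP+ 3).

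Leaving out 1 library gave 2 to 11 members lower and 1 to 5 higher in EKLF-/-, and 3 to 28 other cycle genes lower and 0 to 13 higher, beside 4.55 to 15.0% and 2.75 to 13.7% of all genes. In EKLF/GFP+ it gave 2 to 4 members lower and 17 to 32 higher, and 6 to 8 and 59 to 72 other cycle genes, beside 20.5 to 24.5% and 13.9 to 19.8% of all genes. Uncalled members that changed sign in EKLF-/- ranged from -0.18 to 0.0022 (Mcm2), -0.043 to 0.13 (Gins2), -0.19 to 0.032 (Tyms), -0.14 to 0.19 (Ccnd1), -0.092 to 0.054 (Cdk4), -0.035 to 0.13 (Ccna2), -0.091 to 0.069 (Bub1), -0.049 to 0.10 (Tpx2) and -0.14 to 0.086 (Nusap1). In EKLF/GFP+ they ranged from -0.055 to 0.17 (Gins2), -0.078 to 0.18 (Ung) and -0.22 to 0.068 (Ccnd2).

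In single cells, the members' level per 10000 UMIs in macrophage-like cells was 40.87 with cycle genes kept for clustering, 40.95 at resolution 0.5, 40.73 without hemoglobin and 37.71 with thinned cells. In erythroid-like cells it was 63.64 with at least 1000 detected genes, 81.12 without hemoglobin and 54.29 thinned, and in monocyte-like cells 60.43 at resolution 1.2 and 50.18 thinned. Thinned values were 48.76 in neutrophil-like, 41.66 in endothelial-like and 30.20 in hepatoblast-like cells. Scrublet's own threshold marked 0 cells, so the planned removal of doublets gave no value. Leaving out the 152 cells with the highest scores, chosen after seeing the data, gave 41.82 in endothelial-like and 34.30 in hepatoblast-like cells. The cells in a class changed with some of these alternatives. Macrophage-like cells numbered 1116, but 1438 with cycle genes kept for clustering and 1482 at resolution 0.5. Monocyte-like cells numbered 281, but 72 at resolution 1.2, where a cluster of 210 cells led by Cd74 was left unnamed. Erythroid-like cells numbered 616, but 563 with at least 1000 detected genes. The part of these changes, or of any other cause, in the shifts was not tested.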
